A study of Mus musculus with 6 samples.

Results

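The metallothionein and NRF2 redox genes described here are 10 mouse genes chosen by name from the 56884 genes of the deposited mouse count table: the metallothioneins Mt1 and Mt2, the transcription factor Nfe2l2 (NRF2) with its inhibitor Keap1, and the NRF2 target enzymes Hmox1, Nqo1, Gclc, Gclm, Txnrd1 and Srxn1. All 10 were found by their Ensembl identifiers and all 10 reached the minimum total count for testing. RNA was sequenced from the livers of male BALB/c (nu/nu) mice, wild type by their labels and 6 weeks old at implantation, that carried orthotopic tumors of QGY-7703, a human HCC (hepatocellular carcinoma) cell line. Every mouse received AAV8 by the tail vein 1 week after implantation and was followed for 3 more weeks. The siControl group (3 libraries) received the vector with a control siRNA, and the siAATF group (3 libraries) the vector with an siRNA against mouse Aatf, a transcription factor of stress and apoptosis responses. The siRNA was driven by the TBG promoter, which is active in hepatocytes, so that other cells of the host liver and the human tumor cells were not its target. These nude mice lack a thymus and with it most mature T cells. The sources do not say that each library came from a separate animal, and p-values measure the spread between these samples only. The comparison of the libraries labelled siAATF with those labelled siControl asks how the metal and oxidant response genes of the host liver stood in each group.

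Metallothioneins are small cysteine-rich proteins that bind zinc, copper and cadmium. In the liver their genes are driven by zinc through the factor MTF1, by glucocorticoids and by the acute-phase response. NRF2 is held in the cytoplasm and sent for degradation by KEAP1, and oxidants or electrophiles release it to the antioxidant response elements of genes for glutathione synthesis, thioredoxin reduction and quinone and heme breakdown.

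To show which DNA lies at the start of these genes, RefSeq promoter windows (250 bases before to 30 after the start site) were searched on both strands for the metal response element core TGCNCNC and for the antioxidant response element core TGACNNNGC. The second can hold TGACTCA, the AP-1 motif. A window was held for 8 of the 10 members. Hmox1 and Gclc had no entry. The Mt1 window held 3 matches to the metal response element and the Mt2 window 6. Of the 32851 mouse windows of this length, 6.11% held at least 3 such matches and 0.155% at least 6. The 2 metallothionein windows are shown because they differ in the number of matches, with the matches to the metal response element in capitals. Those on the other strand read as the reverse complement. The Mt1 window lies at chr8:94905467-94905746 and the Mt2 window at chr8:94898996-94899275 of GRCm39, both on the plus strand. By the deposited coordinates the Mt1 window ends inside its gene, which starts at 94905710. That of Mt2 ends before its gene, which starts at 94899292. The 2 numbers of matches thus do not cover the same stretch of each gene.
Mt1: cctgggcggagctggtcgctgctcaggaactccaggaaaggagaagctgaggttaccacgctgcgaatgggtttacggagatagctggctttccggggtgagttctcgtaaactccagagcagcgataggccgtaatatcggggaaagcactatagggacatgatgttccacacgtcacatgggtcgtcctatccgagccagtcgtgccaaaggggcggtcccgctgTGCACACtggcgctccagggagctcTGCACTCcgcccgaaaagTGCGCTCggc
Mt2: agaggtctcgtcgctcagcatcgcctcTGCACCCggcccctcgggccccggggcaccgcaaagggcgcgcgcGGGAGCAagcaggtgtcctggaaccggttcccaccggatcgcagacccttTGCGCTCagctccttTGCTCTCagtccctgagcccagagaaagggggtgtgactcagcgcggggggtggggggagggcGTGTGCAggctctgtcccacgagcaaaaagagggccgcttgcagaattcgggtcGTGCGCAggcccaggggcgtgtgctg
The antioxidant response element had 1 match in each of the windows of Gclm, Mt2 and Nfe2l2 and in 1 of the 3 windows of Txnrd1. It had none in those of Mt1, Nqo1, Srxn1 and Keap1, and 11.5% of all windows held at least 1. The windows of Gclm (chr3:122038956-122039235, plus strand) and Txnrd1 (chr10:82694790-82695069, plus strand) are shown because both genes were higher in siAATF, with the match, which lies on the other strand in both, in capitals. In Gclm the match shares bases with a match to the metal response element.
Gclm: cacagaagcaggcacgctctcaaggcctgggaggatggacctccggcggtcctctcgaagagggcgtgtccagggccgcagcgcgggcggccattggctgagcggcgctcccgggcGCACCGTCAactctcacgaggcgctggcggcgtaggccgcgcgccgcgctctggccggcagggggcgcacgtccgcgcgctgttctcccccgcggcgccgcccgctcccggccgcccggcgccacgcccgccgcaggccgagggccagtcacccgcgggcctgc
Txnrd1: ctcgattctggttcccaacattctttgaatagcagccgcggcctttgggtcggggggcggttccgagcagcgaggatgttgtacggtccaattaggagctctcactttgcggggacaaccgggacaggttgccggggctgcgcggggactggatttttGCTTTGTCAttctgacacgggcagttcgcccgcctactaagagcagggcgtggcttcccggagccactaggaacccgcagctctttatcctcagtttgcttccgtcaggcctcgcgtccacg
A match is a description of these letters, and no binding was measured.

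The libraries differed in depth and in the source of their reads. Mouse genes received 213022 to 913584 counts in siControl against 11835898 to 42563694 in siAATF, while human genes took 98.07% to 99.22% of all counts in siControl against 0.9716% to 2.137% in siAATF. Levels are given as CPM, the mouse counts of a gene scaled to an effective library of 1e+06 counts after TMM normalization. On this scale a limit of 3 counts stood at 1.67 to 7.25 CPM in siControl and at 0.104 to 0.605 in siAATF, which covers counting error only, since the libraries were amplified by PCR without molecular identifiers. The targeted gene Aatf stood at 9.63, 2.42 and 12.8 CPM in siControl and at 13.3, 22 and 18.9 CPM in siAATF after TMM normalization. Its log2 fold change was 0.93 (SE 0.47, adjusted p = 0.152, quasi-likelihood test of edgeR, Benjamini-Hochberg adjustment over all tested genes, used for every adjusted p across genes below) and was -0.92 with scaling by library size alone, so the direction depends on the scaling and neither value passed the test (adjusted p = 0.174 with library size alone). A lower level of Aatf RNA in the libraries labelled siAATF was thus not established. All 10 hepatocyte markers were higher in siAATF, with a summed level of 2998 to 7676 CPM in siControl against 46206 to 117655 CPM in siAATF. Of the markers of other cells, 6 of 10 for macrophages, 5 of 8 for neutrophils, 5 of 8 for endothelial cells and 7 of 8 for fibroblasts were lower. Of 5 tested lymphocyte markers 2 were lower, of 5 tested cholangiocyte markers 1 was higher and 1 lower, and 0 of 6 erythroid markers were called. The fibroblast markers summed to 8701 to 12758 CPM in siControl against 342 to 534 in siAATF. The human share, the hepatocyte markers and the fibroblast markers thus all separated the groups, and for every fold change given here a difference between the siRNAs cannot be told apart from a difference in how much tumor, stroma and liver the sampled pieces held. In such bulk RNA, fewer cells of a type and less RNA per cell cannot be told apart either. The median log2 fold change of the 18018 tested genes was 0.50 with TMM and -1.30 with library size alone, and of the called genes 55.0% were higher with TMM and 9.3% with library size alone.

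Of the 10 members, 4 were called higher in siAATF (Gclc, Gclm, Txnrd1 and Keap1), against 17.6% of all tested genes. Another 2, Hmox1 and Nfe2l2, were called lower, against 14.4% of all genes. Mt1, Mt2, Nqo1 and Srxn1 were not called. With library size alone, 1 member was higher (Gclm), against 4.15% of all genes, and 2 were lower (Hmox1 and Nfe2l2), against 40.4%. At the threshold the study used, an unadjusted p under 0.05 with at least a 4-fold difference, 6 members passed (Mt1, Mt2, Hmox1, Nqo1, Gclc and Gclm), against 26.7% of all genes. The threshold was applied here to the edgeR fit, whereas the study applied it to DESeq2 results. The siAATF libraries lay wholly above the siControl libraries for 5 members, as for 34.5% of all genes, and wholly below for 2, as for 18.1%. The median log2 fold change of the 10 was 1.86 with TMM and 0.03 with library size alone, 1.36 above the median of all genes with TMM.

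**Figure D1:**
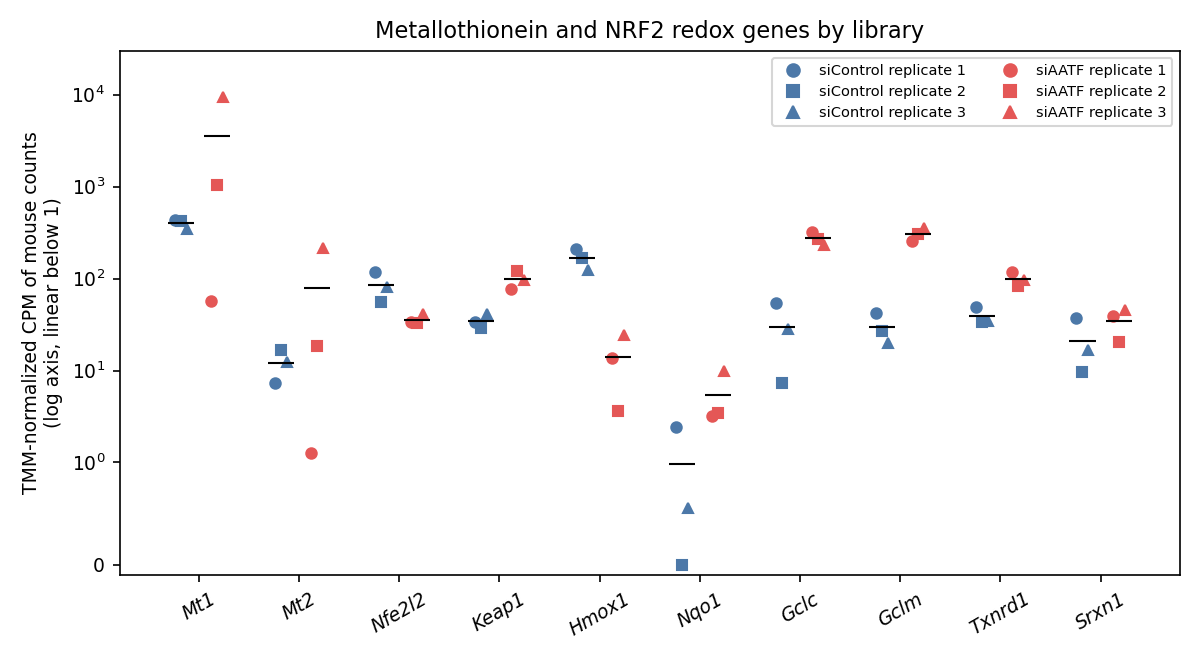
TMM-normalized CPM of mouse counts (log axis, linear below 1) of the 10 genes, with each point 1 library and each bar the mean of 3 libraries. The Mt1 points of siAATF spread from 57.6 to 9442 CPM around those of siControl, while Gclc and Gclm lay higher and Hmox1 and Nfe2l2 lower in each siAATF library than in any siControl library.

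The metallothioneins differed more among the siAATF libraries than between the groups. Mt1 (ENSMUSG00000031765, chr8:94905710-94906955, plus strand) stood at 432, 420.3 and 348 CPM in siControl replicates 1 to 3 and at 57.6, 1045 and 9442 CPM in siAATF replicates 1 to 3. The first siAATF library was below every siControl library and the other two were above, so the groups overlapped. Its highest siAATF level was 164 times the lowest, compared with 1.24 times among siControl. On the log2 scale, with 0.5 CPM added, the siAATF range of 7.35 was wider than that of 99.9% of 9466 genes with a mean of at least 50 counts, whose median range was 0.91. Mt1 took 0.00392%, 0.0438% and 0.487% of the mouse counts in siAATF replicates 1 to 3 and 0.0683% to 0.0817% in siControl, so siAATF replicate 1 was the lowest and siAATF replicate 3 the highest before normalization too. The place of siAATF replicate 2 depends on the scaling, being below the siControl libraries in these shares and above them with TMM.

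The means of Mt1 were 400.1 ± 45.5 CPM in siControl and 3515 ± 5157 CPM in siAATF (SD, n = 3 each), a log2 fold change of 3.14 (SE 1.23, adjusted p = 0.0701, edgeR). This difference did not pass the test. It was 0.52 without siAATF replicate 3 (adjusted p = 0.596) and 3.72 without siAATF replicate 1 (adjusted p = 0.00529). Adjusted p-values for Mt1 ran from 1.17e-04, with no filter, to 0.596 over the alternatives.

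Mt2 (ENSMUSG00000031762, chr8:94899292-94900196, plus strand), the other metallothionein gene that mouse liver uses, had 9, 7 and 22 counts in siControl against 37, 91 and 3903 counts in siAATF. These were 7.23, 16.9 and 12.3 CPM in siControl and 1.28, 18.4 and 217 CPM in siAATF. As for Mt1, siAATF replicate 1 was the lowest and siAATF replicate 3 the highest of the 6 libraries, and the groups overlapped. The highest siAATF level was 169.6 times the lowest. The log2 fold change was 2.78 (SE 1.26, adjusted p = 0.112, edgeR), and it was -0.24 without siAATF replicate 3 (adjusted p = 0.82) and 3.38 without siAATF replicate 1 (adjusted p = 0.00529). Adjusted p-values for Mt2 ran from 7.31e-08, with no filter, to 0.82 over the alternatives.

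The level of Mt2 is uncertain, since 432 of its 588 exonic bases are shared with Gm45774, a long noncoding RNA on the opposite strand. Gm45774 had 2, 1 and 1 counts in siControl against 0, 5 and 132 in siAATF, highest where Mt2 was highest. Use of the read strand in counting was not stated, and without it the reads of both cannot be told apart. Of the runs of 31 bases in the exons, none of Mt1 and 4.62% of Mt2 were found elsewhere in the mouse genome. The human genome, the source of most siControl counts, was not searched.

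Per kilobase of exon, Mt1 exceeded Mt2 in every library, by 26.7, 11 and 13.1 times in siControl and by 21.0, 26.7 and 20.6 times in siAATF. The size of this excess is uncertain, since the exonic length of Mt1, 1246 bases, is that of its whole span. Of the 588 bases of Mt2, 432 are shared with Gm45774. The log2 ratio differed by 0.53 between the groups (exact two-sided permutation test over libraries, p = 0.4, adjusted p = 0.5 over the 5 ratios computed, with 0.1 the smallest p that 3 against 3 allows). So the ratio of the pair ranged over far less than either gene did within siAATF. Mt1 plus Mt2 was also set against the summed hepatocyte markers. Their ratio was 0.0747, 0.214 and 0.162 in siControl and 6.18e-04, 0.0194 and 0.0940 in siAATF. It overlapped between the groups, with a log2 difference of -3.72 (exact permutation test, p = 0.2, adjusted p = 0.333). This difference was -1.69 without siAATF replicate 1 and -5.31 without siAATF replicate 3.

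The gene whose pattern over the 6 libraries was most like that of Mt1 was Saa1, with Saa2 next. Both encode serum amyloid A, acute-phase proteins made by hepatocytes. Pearson's r of log2(CPM + 1) with Mt1 was 0.9917 for Saa1 and 0.9852 for Saa2, as a description over 6 libraries that share their group and depth. Only 9 of the 9465 genes compared with Mt1 had r above 0.95. Saa1 stood at 899, 742 and 725 CPM in siControl and at 104, 1567 and 39694 CPM in siAATF, and Saa2 at 728, 920.4 and 821 CPM in siControl and at 14, 1952 and 62709 CPM in siAATF. In both, siAATF replicate 1 was the lowest and siAATF replicate 3 the highest library, as for Mt1 and Mt2. The genes most like Mt2 were Saa1 (r = 0.9784) and Mt1 (r = 0.9763). Saa1 and Saa2 are near-identical copies and reads mapping to several places were discarded, so the split between them is uncertain.

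**Figure D2:**
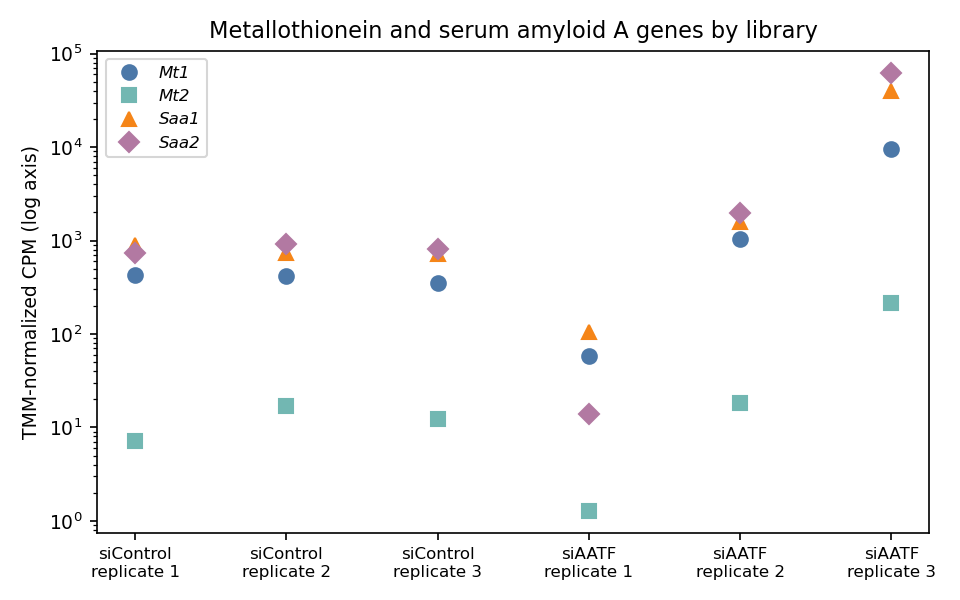
TMM-normalized CPM (log axis) of Mt1, Mt2, Saa1 and Saa2 in each of the 6 libraries, with each point 1 gene in 1 library. All 4 genes were lowest in siAATF replicate 1 and highest in siAATF replicate 3, over a range of 164-fold for Mt1 and 4465-fold for Saa2 within siAATF.

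The regulators moved apart. Nfe2l2 (ENSMUSG00000015839, chr2:75505857-75534985, minus strand), which encodes NRF2, stood at 117, 55.6 and 80.3 CPM in siControl and at 33.4, 32.5 and 41.4 CPM in siAATF. All siAATF libraries were below all siControl libraries. It was lower in siAATF, with means of 84.4 ± 31 and 35.8 ± 4.92 CPM (SD, n = 3 each) and a log2 fold change of -1.25 (SE 0.38, adjusted p = 0.0251, edgeR). The call was lost without siAATF replicate 1 (adjusted p = 0.0527), siControl replicate 1 (0.117) or siControl replicate 3 (0.0783), and the log2 fold change ran from -3.05 to -0.95 over all alternatives.

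Keap1 (ENSMUSG00000003308, chr9:21141026-21150657, minus strand), the adaptor that hands NRF2 to the CUL3 ubiquitin ligase, stood at 33.7, 29.0 and 40.7 CPM in siControl and at 77.3, 122 and 95.3 CPM in siAATF. The groups did not overlap. It was higher in siAATF with TMM, by a log2 fold change of 1.49 (SE 0.38, adjusted p = 0.00962, edgeR), and at -0.38 with library size alone (adjusted p = 0.524). After thinning all libraries to the smallest mouse total it was at 0.76 and not called (adjusted p = 0.268). Its means were 34.5 ± 5.90 and 98.1 ± 22.4 CPM (SD, n = 3 each). Of its 4499 exonic bases, 510 are shared with Gm16754, a long noncoding RNA on the other strand with at most 10 counts in any library.

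The ratio of Nfe2l2 to Keap1 within a library does not depend on the scaling between libraries. Per kilobase, Nfe2l2 was at 6.27, 3.42 and 3.57 times Keap1 in siControl and at 0.787, 0.486 and 0.791 times Keap1 in siAATF. Nfe2l2 RNA thus exceeded Keap1 RNA in every siControl library and was below it in every siAATF library, a 6.33-fold difference (log2 difference -2.66, exact permutation test, p = 0.1, the smallest possible, adjusted p = 0.25). Leaving out any 1 library gave log2 differences of -2.82 to -2.38.

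**Figure D3:**
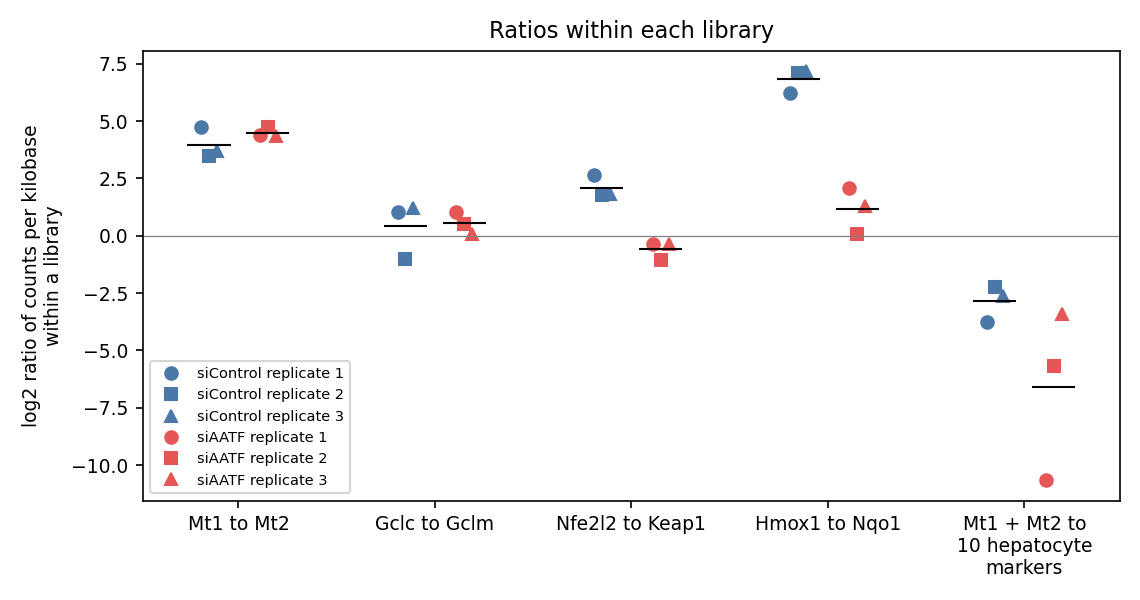
Log2 ratios of counts per kilobase within each library for the 5 pairs computed, with each point 1 library and each bar the mean of 3. Nfe2l2 to Keap1 and Hmox1 to Nqo1 were lower in every siAATF library than in any siControl library, and the other 3 ratios overlapped between the groups.

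Hmox1 (ENSMUSG00000005413, chr8:75820249-75827217, plus strand) encodes heme oxygenase 1, which breaks heme into biliverdin, iron and carbon monoxide and is abundant in macrophages that clear red cells. It stood at 211, 169 and 123 CPM in siControl and at 13.7, 3.63 and 24.6 CPM in siAATF. Each siControl library was above each siAATF library. Hmox1 had the largest fall of the 10 genes, 11.8-fold, from 168 ± 44.2 to 14 ± 10.5 CPM (SD, n = 3 each, log2 fold change -3.56, SE 0.61, adjusted p = 8.12e-04, edgeR). It was called lower in all 17 alternative settings, with log2 fold changes of -5.41 to -3.07. The sum of the macrophage markers was lower too, at 1273 to 3922 CPM in siControl against 176 to 305 CPM in siAATF. Adgre1 and Cd68 were among the 6 that fell, and the 4 not called were Clec4f, Cd5l, Vsig4 and Mrc1. Not all markers moved with Hmox1, since Clec4f, Cd5l and Vsig4 were fitted higher in siAATF. Clec4f stood at 44.2, 2.42 and 13.4 CPM in siControl and at 69.5, 45.4 and 69.1 CPM in siAATF, with no overlap. None of the 10 was at 0 in every library of a group, and their part in the fall of Hmox1 was not tested.

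Nqo1 (ENSMUSG00000003849, chr8:108114857-108129838, minus strand), the quinone reductase often read as an NRF2 target, was scarce. It had 3, 0 and 1 counts in siControl against 92, 17 and 177 in siAATF, or 2.41, 0 and 0.558 CPM in siControl and 3.17, 3.43 and 9.82 CPM in siAATF. The siAATF libraries were all above, but the siControl values rest on 4 counts in all. Nqo1 reached the minimum total count through siAATF alone, the group where it is high. Its siAATF levels of 3.17 and 3.43 CPM are below the 3-count limit of 7.25 CPM in siControl replicate 2. Its fold change and the ratio to it below are thus uncertain. The log2 fold change of 2.24 (SE 0.92) did not pass the test (adjusted p = 0.0816, edgeR). It was 3.61 without siControl replicate 1 (adjusted p = 0.0597) and 1.58 without siAATF replicate 3 (adjusted p = 0.249). Pooled counts, scaled by effective library size, gave a ratio of 4.75, with an exact 95% interval of 1.84 to 17.6 for counting error alone. Hmox1 to Nqo1, per kilobase within a library, was 74.5, 139.6 and 146 in siControl and 4.26, 1.05 and 2.48 in siAATF and thus lower in every siAATF library (log2 difference -5.69, exact permutation test, p = 0.1, adjusted p = 0.25). With Nqo1 at 0 to 3 counts, the siControl ratios depend on the 0.5 counts added to each gene, and the log2 difference was -4.14 with 3 counts added.

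The 2 genes of glutamate-cysteine ligase, the rate-limiting enzyme of glutathione synthesis, rose together. Gclc (ENSMUSG00000032350, chr9:77661817-77701767, plus strand), the catalytic subunit, stood at 54.6, 7.25 and 28.4 CPM in siControl and at 324, 269 and 234 CPM in siAATF. The groups did not overlap, and the lowest siControl value rests on 3 counts. Its means were 30.1 ± 23.7 and 276 ± 45.3 CPM (SD, n = 3 each), an 8.69-fold rise (log2 fold change 3.12, SE 0.58, adjusted p = 0.00135, edgeR). With library size alone it was at 1.37 and not called (adjusted p = 0.0573).

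Gclm (ENSMUSG00000028124, chr3:122039206-122064381, plus strand), the modifier subunit, stood at 42.6, 26.6 and 20.1 CPM in siControl and at 257, 303 and 359 CPM in siAATF. It rose 10.3-fold, the largest fitted rise among the 10 with all 6 libraries and TMM, with means of 29.7 ± 11.6 and 306 ± 51.0 CPM (SD, n = 3 each, log2 fold change 3.36, SE 0.47, adjusted p = 2.38e-04, edgeR). It was called in all 17 alternative settings, at 1.54 to 3.74. Without siAATF replicate 1 or 2 the fitted value of Mt1 was the larger (3.72 against 3.52 and 3.60 against 3.43), and without siControl replicate 1 that of Gclc (3.79 against 3.74). Of the 31-base runs of Gclm, 5.54% were found elsewhere in the mouse genome, and the human genome was not searched.

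Per kilobase, Gclc was at 2.09, 0.497 and 2.30 times Gclm in siControl and at 2.06, 1.45 and 1.06 times in siAATF. The ratio overlapped between the groups (log2 difference 0.13, exact permutation test, p = 1), and siControl replicate 2, with 3 counts of Gclc, was the only library in which Gclc was the lower. The log2 difference was -0.58 without that library. Zfp523 (r = 0.9988) and Anks4b (r = 0.9987) were most like Gclm over the 6 libraries, and 956 of 9465 genes had r above 0.95. For Hmox1 they were Sgk3 (r = 0.9980) and Kdm4a (r = 0.9976), with 375 genes above 0.95. For both members the libraries of the groups did not overlap. The hepatocyte markers rose with Gclc and Gclm, and their part was not tested.

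Txnrd1 (ENSMUSG00000020250, chr10:82669785-82733546, plus strand), the cytosolic thioredoxin reductase, stood at 49.0, 33.8 and 34.6 CPM in siControl and at 118, 82.5 and 95.4 CPM in siAATF. The groups did not overlap. It was higher in siAATF with TMM, from 39.1 ± 8.54 to 98.7 ± 18.2 CPM (SD, n = 3 each, log2 fold change 1.33, SE 0.38, adjusted p = 0.0172, edgeR), and at -0.43 with library size alone (adjusted p = 0.492). The call was lost without siControl replicate 2 (adjusted p = 0.0672) or 3 (0.118) and after thinning (0.525).

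Srxn1 (ENSMUSG00000032802, chr2:151947444-151953296, plus strand), which repairs overoxidized peroxiredoxins, stood at 36.9, 9.66 and 16.7 CPM in siControl and at 38.8, 20.4 and 45.7 CPM in siAATF. The groups overlapped. The log2 fold change was 0.66 (SE 0.47, adjusted p = 0.311, edgeR) with TMM, near the median of all genes, and -1.07 with library size alone. With 1 library left out it ran from 0.40 (siControl replicate 2) to 1.30 (siControl replicate 1) and was not called.

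Order among members was read per kilobase of exon, as group means of TMM-normalized CPM per kilobase. The lengths of Mt1 and Mt2 carry the limits given above, so their levels and places here are uncertain. In siControl Mt1 led (321), followed by Hmox1 (107), Nfe2l2 (34.1) and Mt2 (20.6). The libraries of Mt1, Hmox1 and Nfe2l2 did not overlap, and those of Nfe2l2 and Mt2 did. Txnrd1 (9.60), Gclc (8.79), Keap1 (7.66), Srxn1 (7.51) and Gclm (5.32) came next and each overlapped with its neighbours in this group of 5, and Nqo1 was last (0.637) and below all of them. In siAATF the means were 2821 for Mt1, 134 for Mt2, 80.5 for Gclc and 54.8 for Gclm, ahead of Txnrd1 (24.2), Keap1 (21.8), Nfe2l2 (14.5), Srxn1 (12.4), Hmox1 (8.92) and Nqo1 (3.52). The siAATF libraries of Mt1 and of Mt2 spread over several of these ranks. Gclc, Gclm and Txnrd1 did not overlap, Txnrd1 overlapped with Keap1, and Nfe2l2, Srxn1, Hmox1 and Nqo1 each overlapped with the next. Hmox1 thus stood second in the siControl order and ninth in the siAATF order. The place of Mt2 ahead of Gclc and Gclm in siAATF rests on replicate 3, since Mt2 was at 2.17, 31.2 and 368 per kilobase and below both in the other replicates, and Mt1 was below Gclc in replicate 1.

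**Figure D4:**
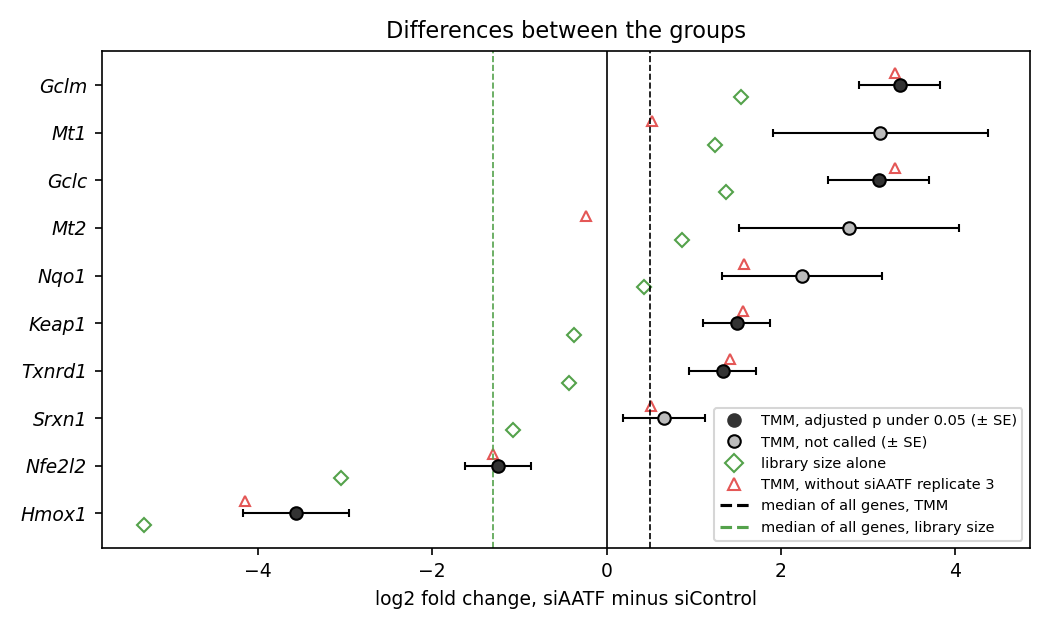
Log2 fold changes (siAATF minus siControl) of the 10 genes, with circles and SE bars from TMM, diamonds from library size alone, triangles without siAATF replicate 3, and dashed lines at the medians of all genes (0.50 and -1.30). Txnrd1, Keap1 and Srxn1 were above 0 with TMM and below 0 with library size alone, Mt2 crossed 0 without siAATF replicate 3, and Hmox1 and Nfe2l2 stayed below 0 in each.

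A wider set of 68 genes of the same pathways was followed in 6 lists written by role. Of these, 64 were tested, and 25 were called higher, 9 lower and 30 not called, beside 17.6% of all genes higher and 14.4% lower. With library size alone, 9 were higher and 21 lower, beside 4.15% and 40.4% of all genes. The count of higher genes was 15 without siControl replicate 2 and also without siControl replicate 3, fits in which 12.6% and 9.08% of all genes were higher. The median log2 fold change was 1.12 with TMM, beside 0.50 for all genes, and -0.59 with library size alone, beside -1.30.

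Among 9 partners and regulators of NRF2, 1 was higher and 2 were lower with TMM (median 0.44), and 0 higher and 6 lower with library size alone (median -1.43). Bach2, a repressor related to BACH1, was called higher (1, 0 and 4 counts in siControl against 238, 49 and 76 in siAATF, log2 fold change 2.43, SE 0.76, adjusted p = 0.0282). It passed the count filters through siAATF alone, the group where it is high, and its siAATF level of 4.22 CPM in replicate 3 is below the 3-count limit of 7.25 CPM in siControl replicate 2, so its fold change is uncertain. Bach1, which competes with NRF2 at Hmox1, was lower, from 41.8 ± 13.2 to 20.5 ± 3.92 CPM (log2 fold change -1.04, SE 0.37, adjusted p = 0.0454, edgeR). The Bach1 call was lost whichever library was left out (adjusted p = 0.0598 to 0.219), and with limma-voom, no filter or thinning (0.0545, 0.0892 and 0.0611). That of Bach2 was lost without siAATF replicate 1 or 2 or siControl replicate 1 or 2 (0.0505 to 0.11), with upper-quartile normalization (0.0538) and with library size alone (0.584). Maff, a small MAF partner, was the other gene called lower (-3.69). It fell short of the mean count required for naming and is named because the count is small. Cul3, Rbx1, Sqstm1 and Nfe2l1 overlapped between the groups and were not called.

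In the glutathione list, 7 of 11 tested genes were higher and 1 was lower. The median was 3.22, or 2.56 without Gsta1, which had no counts in siControl. With library size alone 5 were higher and 2 lower. Gsta3, a glutathione S-transferase, was at 65, 14.5 and 23.4 CPM in siControl and at 1221, 248 and 289 CPM in siAATF (log2 fold change 4.05, SE 0.78, adjusted p = 0.00178, edgeR). Gsta4, which detoxifies lipid aldehydes, was higher by 3.69 (SE 0.66, adjusted p = 0.0011). It had 7, 1 and 3 counts in siControl against 2230, 117 and 468 in siAATF. The mean count required for naming was reached through siAATF, the group where Gsta4 is high, so its fold change is uncertain. Gsta3 and Gsta4 belong to a family of close copies, so reads may have been lost or split. Gpx3, the secreted glutathione peroxidase, was lower, from 183 ± 13.5 to 21.6 ± 4.12 CPM (log2 fold change -3.08, SE 0.39, adjusted p = 1.35e-04).

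Of 11 thioredoxin and peroxiredoxin genes, 5 were higher and 1 was lower with TMM, and 0 higher and 1 lower with library size alone (median 1.47 with TMM). Txn2, the mitochondrial thioredoxin, was higher by 2.38 (SE 0.46, adjusted p = 0.00179), and Prdx6, which reduces phospholipid peroxides, by 2.12 (SE 0.50, adjusted p = 0.00628, edgeR, and 0.0525 without siControl replicate 3). Txnip, which binds and inhibits thioredoxin, was lower, from 104 ± 9.83 to 29.3 ± 19.2 CPM (log2 fold change -1.83, SE 0.47, adjusted p = 0.00964).

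Of 6 genes of NADPH supply, 1 was higher and 2 were lower with TMM (median 0.47), and 0 higher and 3 lower with library size alone (median -1.27). The pentose phosphate enzymes G6pdx and Pgd fell, by 2.75 (SE 0.44, adjusted p = 5.71e-04) and by 1.29 (SE 0.44, adjusted p = 0.0397, edgeR) on the log2 scale. The Pgd call was lost without siControl replicate 1, 2 or 3 (adjusted p = 0.0899, 0.0731 and 0.125). Idh1, cytosolic isocitrate dehydrogenase, was higher by 3.01 (SE 0.53, adjusted p = 0.00105), and at 1.28 with library size alone (adjusted p = 0.0717). Of these NADPH genes G6pdx was at 30.5, 33.8 and 27.3 CPM in siControl and at 3.24, 2.82 and 7.10 CPM in siAATF, with no overlap.

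Of 15 other oxidant defence genes and NRF2 targets, 7 were higher and 2 were lower with TMM (median 1.22), and 2 higher and 6 lower with library size alone. Catalase (Cat) was higher, at 198, 36.2 and 64.7 CPM in siControl and at 2975, 1648 and 1849 CPM in siAATF (log2 fold change 4.42, SE 0.76, adjusted p = 8.72e-04, edgeR). Sod1, the cytosolic superoxide dismutase, was higher by 3.37 (SE 0.57, adjusted p = 7.76e-04). Sod3, the extracellular form, was lower, from 98.4 ± 16.2 to 37.2 ± 8.74 CPM (log2 fold change -1.41, SE 0.37, adjusted p = 0.0115, and 0.0618 without siControl replicate 3).

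Of 12 tested genes of zinc and copper handling, 4 were higher and 1 was lower with TMM (median 1.17), and 2 higher and 3 lower with library size alone (median -0.52). Slc30a10, a manganese and zinc exporter, had 7, 0 and 7 counts in siControl against 1780, 362 and 865 in siAATF (log2 fold change 3.96, SE 0.53, adjusted p = 1.74e-04, edgeR). It too reached the mean count for naming through siAATF, the group where it is high, so its fold change is uncertain. Ccs, the copper chaperone of SOD1, was higher by 3.86 (SE 0.53, adjusted p = 2.09e-04). Slc39a10, a zinc importer, was the 1 gene called lower (-2.27, adjusted p = 0.00822, and 0.0627 without siControl replicate 1) and is named for that reason. Mtf1, the metal-sensing factor of the metallothionein genes, stood at 16.9, 16.9 and 19.5 CPM in siControl and at 25.3, 47.0 and 25.2 CPM in siAATF and was not called (log2 fold change 0.85, adjusted p = 0.117). It is named beside Mt1 and Mt2 after its values were seen.

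**Figure D5:**
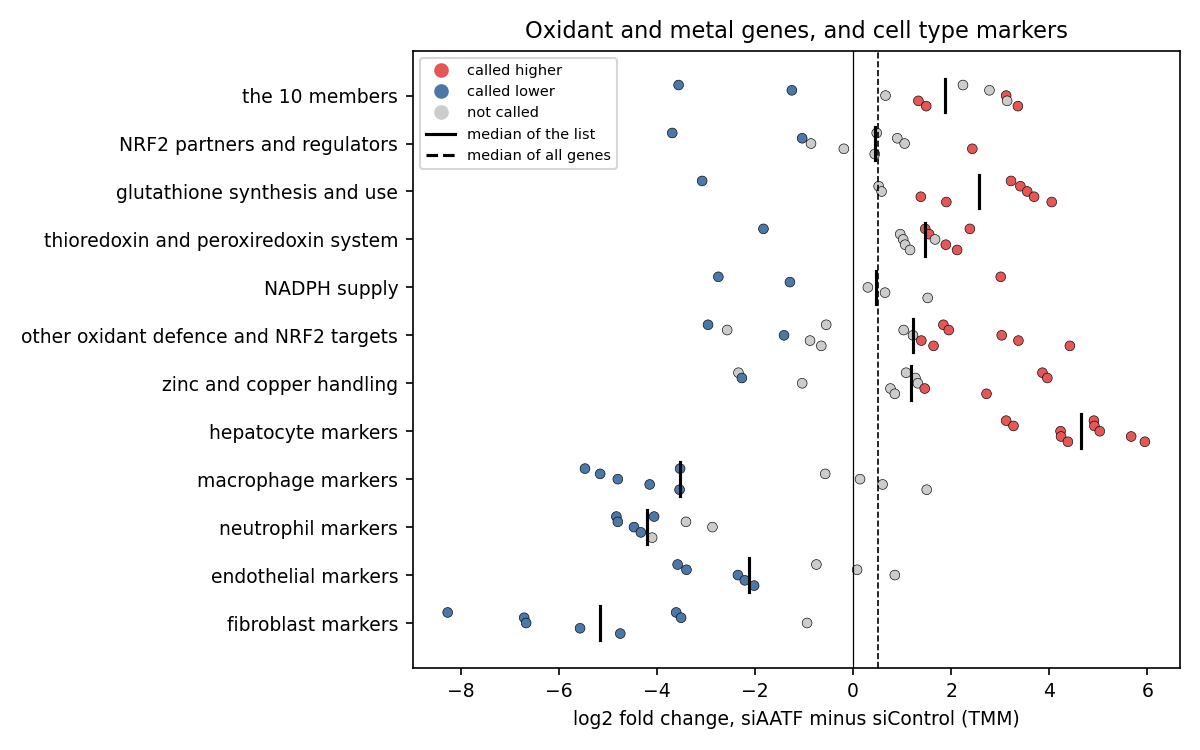
Log2 fold changes (siAATF minus siControl, TMM) of the 10 members, the 6 wider lists and 5 lists of cell type markers, with each point 1 gene, a bar at each list's median and a dashed line at the median of all genes (0.50). Gsta1, with no counts in siControl, is not drawn. All 10 hepatocyte markers were higher, and the lists of oxidant and metal genes held genes called in both directions. With library size alone the values shift lower and 21 of the 64 wider genes were called lower.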

How the data were processed

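The authors prepared total RNA libraries with a SMART-Seq kit, trimmed the reads, aligned them to the human and mouse genomes together, dropped those with more than one mapping position or with hits in both species, and counted the remainder on genes. The submitters' processing notes name GRCm39, STAR 2.7.11, featureCounts 2.0.1, R 4.3.2 and DESeq2 1.42.0. The strand setting of the counting is not given in the sources used here. The deposited values are raw read counts per gene without normalization, in separate mouse and human tables. Coordinates and exonic lengths are those of the deposited mouse table.

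Names were taken from GENCODE release 39 of the mouse annotation, in which 56323 of 56884 identifiers were found. Human genes were used for library totals only. The 6 count columns were assigned to groups by their names and the sample labels, and 0 were left unassigned. The depth in mouse counts, by replicate number, was 703317, 213022 and 913584 for siControl and 42563694, 11835898 and 34966245 for siAATF.

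The mouse table was tested with edgeR 4.0.16 (quasi-likelihood, TMM, a minimum of 10 counts over all libraries, group as the only term) and limma 3.58.1 in R 4.3.3, after the test was tried on simulated data. A gene was called at a Benjamini-Hochberg adjusted p under 0.05 over all 18018 tested genes. SE is the standard error of the fitted log2 fold change. Ratios within a library used counts per kilobase with 0.5 counts added. The study's own program, DESeq2, was run as an alternative with its own normalization, and limma-voom as another. The edgeR test was also run with RLE and upper-quartile normalization, library size alone, 3 other filters, a replicate block and thinning to the smallest total. It was repeated leaving out each library in turn. The study's threshold was applied to the main edgeR fit. The members and lists were chosen with earlier results of these data known.

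The genes named are the 10 members, Aatf, up to 2 called genes with the largest rise and 2 with the largest fall in each role list (mean of at least 50 counts, no overlap between groups), and the 2 genes most like Mt1, Gclm and Hmox1 by Pearson's r. Those most like Mt2, and genes outside this rule, were added after their values were seen. Promoter windows are from RefSeq and were placed in GRCm39 by exact match. Same-numbered libraries of the groups had correlations of their deviations from the group means of 0.154, 0.213 and -0.0552 over 9466 genes and were not treated as pairs. Tables and plots used Python 3.11.15, pandas 2.3.3, SciPy 1.17.1 and matplotlib 3.10.9.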

Additional observations from a re-analysis of the deposited data

How the results depend on the processing

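The number of members called higher, 4 with TMM, was 1 with library size alone, 7 with no filter (14.7% of all genes higher) and 2 with all libraries thinned to the smallest mouse total (13.4%). Members called lower, 2 in the main test, numbered 1 at the study's threshold and 1 to 2 when 1 library was left out. Of the wider genes, 25 were higher, against 9 with library size alone, 16 after thinning, 15 at the study's threshold and 15 to 37 with 1 library left out (15 without siControl replicate 2 or 3). In the fits with 1 library left out, 9.08% to 21.0% of all genes were higher and 9.70% to 14.7% lower. The wider genes called lower, 9, became 21 with library size alone. With library size alone, log2 fold changes turned to -0.43 for Txnrd1, -1.07 for Srxn1, -0.38 for Keap1 and -0.92 for Aatf, and Srxn1 was at -0.20 after thinning. Mt2 ran from -0.24 (without siAATF replicate 3) to 3.38 (without siAATF replicate 1). The log2 difference of the Gclc to Gclm ratio, 0.13, was -0.02 with 3 counts added and -0.58 to 0.53 with 1 library left out, being -0.58 without siControl replicate 2 and -0.11 without siAATF replicate 1. That of Hmox1 to Nqo1 was -4.14 with 3 counts added, and that of Mt1 plus Mt2 to the hepatocyte markers ran from -5.31 to -1.69 with 1 library left out. The causes of these shifts were not tested.

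With the replicate number as a block, 5 members were higher and 2 lower, the addition being Nqo1 (log2 fold change 2.27, adjusted p = 0.0314), and Mt1 was at 1.19 (adjusted p = 0.338). Among all genes it moved the calls from 3169 to 3854 higher and from 2593 to 2912 lower. The libraries share only a number: siControl replicate 1 correlated best with siAATF replicate 3 (0.161). Depth limits Nqo1, Gclc, Srxn1 and Mt2 most, since siControl replicate 2 held 0, 3, 4 and 7 of their counts.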

Other observations

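Beside Hmox1, genes that act on heme and its products were read after their values were seen. Hmox2, the constitutive heme oxygenase, stood at 32.9, 26.6 and 24.5 CPM in siControl and at 18.6, 7.87 and 18.7 CPM in siAATF, with no overlap between the groups, and was not called (log2 fold change -0.88, SE 0.41, adjusted p = 0.121, quasi-likelihood test of edgeR, Benjamini-Hochberg adjustment). Blvra and Blvrb, the biliverdin reductases, were not called either (-0.65 and 1.22). Fth1, the heavy chain of ferritin, stood at 1960 ± 669 CPM in siControl and 1342 ± 604 CPM in siAATF (SD, n = 3 each, log2 fold change -0.55, adjusted p = 0.509), and Ftl1, the light chain, at 1028 ± 331 and 2095 ± 631 CPM (log2 fold change 1.03, adjusted p = 0.197, and -0.70 with library size alone). Scaled by library size alone, Hmox2 (-2.62, adjusted p = 4.00e-04), Blvra (-2.46, adjusted p = 9.98e-04) and Fth1 (-2.27, adjusted p = 0.0162) were called lower, as Hmox1 was. These calls varied with the setting. Hmox2 was lower in 5 alternatives in all (adjusted p = 4.00e-04 to 0.0498) and Blvra also without siAATF replicate 3 (0.0346). Blvrb was higher in 6 (0.00997 to 0.0393), among them the fits without siAATF replicate 1, siAATF replicate 2 or siControl replicate 1, and Ftl1 was higher with DESeq2 (0.0399). None of these 5 genes passed the main test, as Hmox1 did, and the differences between them and Hmox1 were not tested.

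The other metallothionein genes of the same cluster on chromosome 8 were scarce. Mt3 had 0, 3 and 1 counts in siControl against 0, 1 and 13 in siAATF, or 0, 7.25 and 0.558 CPM against 0, 0.202 and 0.721 CPM, and was not called (log2 fold change -2.34, adjusted p = 0.319). Mt4 had 1 count in all 6 libraries together. Slc7a11, the cystine transporter that NRF2 targets, had 5 counts in siControl replicate 3, 1 in siAATF replicate 1 and 0 in the other libraries, below the total needed for testing.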
